A study of Mus musculus with 8 samples.

Results

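Major urinary proteins, encoded by the Mup genes, and the alpha-1-antitrypsin paralogs Serpina1a to Serpina1e are abundant products of the mouse hepatocyte. They were read here through 8 probe sets, chosen because their annotation holds a symbol that begins with Mup and a digit, or one of Serpina1a to Serpina1e, out of 23410 probe sets with a symbol. The Mup side has 4 probe sets. Those of Mup3, Mup5 and Mup21 carry 1 symbol each, and the fourth carries Mup6 and Mup16 together with the pseudogenes Mup-ps12 and Mup-ps15 and the predicted gene Gm21286. The Serpina1 side also has 4, those of Serpina1c and Serpina1d and 2 that each carry all of Serpina1a, Serpina1b, Serpina1c, Serpina1d and Serpina1e. Serpina1a, Serpina1b and Serpina1e were therefore read only jointly, and Mup20, the male pheromone protein darcin, was not analysed here.

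Livers came from 4 transgenic and 4 control mice, all 4 weeks old and on a mixed C57BL/6 and NMRI stock with at least 4 backcrosses to C57BL/6. The transgenic mice carried a constitutively active IKK2 driven by the LAP promoter, which is active in hepatocytes, and the controls were wild type. Each liver was hybridised to its own Affymetrix array, with 4 biological replicates a group by their titles. The sex of the mice is not labelled.

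Mup proteins are lipocalins, small barrel-shaped carriers that the liver secretes into blood and the kidney passes into urine, where they bind and slowly release pheromones. Their hepatic genes depend on growth hormone pulses, which act through STAT5, and are higher in males than in females once mice mature. Alpha-1-antitrypsin is a serpin, a suicide inhibitor of serine proteases, and neutrophil elastase is its best-known target. In humans it is a mild acute phase protein. IKK2 releases NF-kB from its inhibitors, and the comparison asks how the transcripts of these secreted proteins differ when that kinase is active in hepatocytes.

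The promoters of Mup3, Mup21 and Mup6 are shown so that the likeness of the Mup genes upstream of their starts can be seen, and say nothing of what a probe set reads. RefSeq windows on GRCm38.p6, from 250 bases before to 50 after the annotated start, were found for 14 Mup genes and all 5 Serpina1 genes. The Mup3 window lies at chr4:62087268-62087567 and the Mup21 window at chr4:62150792-62151091, both on the minus strand, and the Mup6 window lies at chr4:60003231-60003530 on the plus strand. Capitals mark TATATAA, which resembles the box where transcription factor TFIID binds.
Mup3: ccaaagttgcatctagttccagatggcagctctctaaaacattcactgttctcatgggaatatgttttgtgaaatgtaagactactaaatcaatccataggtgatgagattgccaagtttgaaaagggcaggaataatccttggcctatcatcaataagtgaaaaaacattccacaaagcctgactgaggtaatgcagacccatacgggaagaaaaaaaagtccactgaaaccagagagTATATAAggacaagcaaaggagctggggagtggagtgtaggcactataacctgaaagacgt
Mup21: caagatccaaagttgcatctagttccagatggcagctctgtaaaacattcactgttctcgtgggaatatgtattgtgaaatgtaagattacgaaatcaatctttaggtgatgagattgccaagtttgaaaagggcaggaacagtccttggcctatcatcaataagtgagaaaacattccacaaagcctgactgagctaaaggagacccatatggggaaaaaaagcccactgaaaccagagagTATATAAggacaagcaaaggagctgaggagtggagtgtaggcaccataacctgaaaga
Mup6: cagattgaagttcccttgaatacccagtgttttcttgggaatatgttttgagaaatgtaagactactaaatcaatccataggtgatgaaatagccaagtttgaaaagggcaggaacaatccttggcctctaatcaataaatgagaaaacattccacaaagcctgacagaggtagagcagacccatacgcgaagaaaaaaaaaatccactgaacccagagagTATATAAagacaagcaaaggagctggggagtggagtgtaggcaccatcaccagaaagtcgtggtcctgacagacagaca
The Mup3 and Mup21 windows were 92.9% identical over 297 aligned positions. Over the 91 pairs of Mup windows identity ran from 52.7% to 99.0% with a median of 81.6%, and the longest stretch common to all 14 had 9 bases. These values also depend on where the annotated starts lie, with TATATAA at offset -31 in the Mup9 window and 12 in that of Mup14. The Mup7 window was 98.2% identical to that of Mup9 over 163 aligned positions, but 54.0% to that of Mup2 over 300. Mup2 and Mup9 were 97.0% identical. The letters TATATAA stood in 13 of the 14 Mup windows on either strand, against 3.24% of all 32851 windows of the same length.

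The 5 Serpina1 windows on chromosome 12 hold a common stretch of 59 bases, and identity over their 10 pairs ran from 63.3% to 97.6% with a median of 92.8%. The lowest was Serpina1d against Serpina1e, over 362 aligned positions, though they were 93.1% and 97.6% identical to Serpina1b. The common stretch lies at different distances from the annotated start in these 2 windows. The stretch is given next as the longest that all 5 share, with capitals on GTTAAT, an arm of the HNF1 motif.
Stretch shared by Serpina1a to Serpina1e: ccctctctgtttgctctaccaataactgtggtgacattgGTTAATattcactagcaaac
GTTAAT stood in all 5 Serpina1 windows, in 0 of 14 Mup windows and in 7.10% of all windows. The full HNF1 motif, which is GTTAAT and its inverted repeat with 1 base between them, was found with up to 2 mismatches in 0 of 5 Serpina1 and 0 of 14 Mup windows, against 1.36% of all. The STAT5 motif TTCNNNGAA was in 0 of 5 Serpina1 and 0 of 14 Mup windows on both strands, against 8.30% of all. The NF-kB motif was also in 0 of 5 and 0 of 14, against 8.46%. The C/EBP motif TTGCNNAA was in 4 of 5 Serpina1 windows and in 0 of 14 Mup windows, against 10.8% of all. In Serpina1b, Serpina1d and Serpina1e it lay before GTTAAT (offsets -161, -149 and -211). In Serpina1a it lay after GTTAAT (offset 24), so the 4 matches are not all the same site. TATATAA and GTTAAT were added to the search after the windows had been read. These matches describe letters in short windows and say nothing of binding.

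Transcripts read by the Mup probe sets averaged lower in transgenic liver, while those read by the Serpina1 probe sets did not pass the test. Of the 4 Mup probe sets 2 fell, 0 rose and 2 did not pass limma's test at an adjusted p under 0.05. Of all probe sets tested, 1.46% were called lower, 4.14% higher and 5.6% in either direction. At an unadjusted p under 0.05 stood 4 of 4 Mup and 0 of 4 Serpina1 probe sets, against 32.7% of all. The median log2 fold change was -2.38 over the 4 Mup probe sets, -0.03 over the 4 Serpina1 probe sets and -0.06 over all 23410. Probe sets of a family read related sequences, so they are not independent readings of it. In whole liver, fewer cells of a type and less RNA per cell cannot be told apart.

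Mup3, a lipocalin gene of the cluster on chromosome 4, had the lowest log2 fold change of all 8. Its log2 expression values were 7.15, 5.54, 5.91 and 8.09 for transgenic livers 1 to 4, against 11.43, 10.46, 8.37 and 11.23 for control livers 1 to 4. Every transgenic liver was below every control, by a gap of 0.27 between transgenic replicate 4 and control replicate 3. Groups that do not overlap, with transgenic lower, were found for 10.6% of all probe sets. Mup3 averaged 6.67 ± 1.17 in transgenic liver and 10.37 ± 1.40 in controls (SD, n = 4 each), a log2 difference of -3.70 (13.0-fold lower, SE 0.72, 95% interval -5.32 to -2.08). It fell with an adjusted p of 0.0258 in limma. The call depended on the arrays kept. Leaving out transgenic liver 1 gave an adjusted p of 0.0737, and leaving out control liver 1, 2 or 4 gave 0.0793, 0.0861 or 0.0721, while the estimate ran between -4.37 and -3.32 over the 8 fits without 1 array.

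The probe set that carries Mup6 and Mup16 with 2 pseudogenes and Gm21286 also fell. It stood at 5.56, 3.71, 4.13 and 6.47 for transgenic livers 1 to 4, against 8.15, 7.58, 6.18 and 7.95 for control livers 1 to 4. Transgenic replicate 4 lay above control replicate 3, so the groups overlapped. The mean was 4.97 ± 1.28 in transgenic liver and 7.47 ± 0.89 in controls (SD, n = 4 each). The log2 fold change was -2.50 (5.65-fold lower, SE 0.62, adjusted p = 0.0479 in limma). Since 5 symbols share this probe set, the fall cannot be assigned to any of them. Leaving out any array other than transgenic replicate 4 ended the call (adjusted p from 0.0609 to 0.121), as did median centring of the arrays (0.0641), testing all deposited probe sets (0.0772), trend and robust moderation (0.0641) and treat against a 1.2-fold change (0.134).

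Mup21, a neighbour of Mup3 in the cluster on chromosome 4, did not pass. Values were 3.95, 3.34, 2.94 and 4.81 for transgenic livers 1 to 4, against 6.90, 5.05, 4.54 and 7.58 for control livers 1 to 4. Controls 1 and 4 stood well above the other 6 livers, and transgenic replicate 4 lay above control replicate 3. Means were 3.76 ± 0.82 in transgenic liver and 6.02 ± 1.46 in controls (SD, n = 4 each), which gave a log2 difference of -2.26 (SE 0.66, limma's adjusted p = 0.0674). Without transgenic replicate 4 the adjusted p was 0.0426.

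Mup5, a Mup gene that is known mainly from salivary and other glands, did not pass either. Values were 3.77, 3.62, 3.40 and 3.85 for transgenic livers 1 to 4, against 4.66, 4.77, 3.76 and 4.54 for control livers 1 to 4. Only control replicate 3 lay within the transgenic range. The log2 fold change was -0.77 (SE 0.21, adjusted p = 0.0573 in limma), and the adjusted p was 0.0165 without control replicate 3 and 0.0480 without transgenic replicate 4. Xist, a transcript of females, read 2.95 to 3.39 over the 8 livers. The Y-linked Eif2s3y, Kdm5d and Uty read at least 6.34 in all 8 livers.

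**Figure D1:**
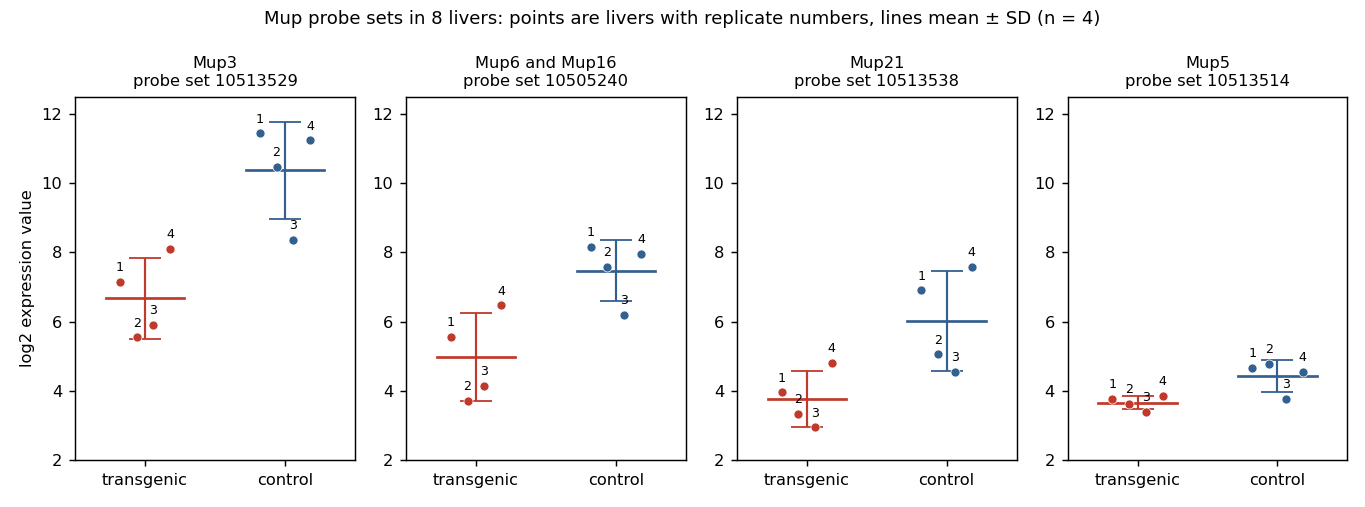
Log2 expression value (vertical axis) of the 4 Mup probe sets in 4 transgenic livers (left, red) and 4 control livers (right, blue). Points are livers with their replicate number and lines are mean ± SD. Only the Mup3 panel shows groups that do not overlap, and control replicate 3 is the lowest control in all 4 panels.

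The 4 Mup probe sets ordered the livers alike. Transgenic replicate 4 was the highest and replicate 1 the next highest transgenic liver for all 4, with replicates 2 and 3 below them. Control replicate 3 was the lowest control for all 4. The order of the remaining controls differed, with replicate 1 highest for Mup3 and the Mup6 and Mup16 probe set, replicate 4 for Mup21 and replicate 2 for Mup5.

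The spread among the controls themselves was wide for Mup transcripts. The control SD of Mup3 was 1.40, above that of all other probe sets within 0.5 of its control mean (677 with it, median SD 0.14). Mup21 had a control SD of 1.46, the Mup6 and Mup16 probe set 0.89 and Mup5 0.46, each above 98.8% of all probe sets tested. On a linear scale the highest control exceeded the lowest 8.38-fold for Mup3 and 8.25-fold for Mup21. Among transgenic livers the highest exceeded the lowest 5.87-fold for Mup3 and 3.67-fold for Mup21. The log2 fold change of Mup3 was -2.64 control SDs, that of the Mup6 and Mup16 probe set -2.82, that of Mup5 -1.69 and that of Mup21 -1.55.

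**Figure D2:**
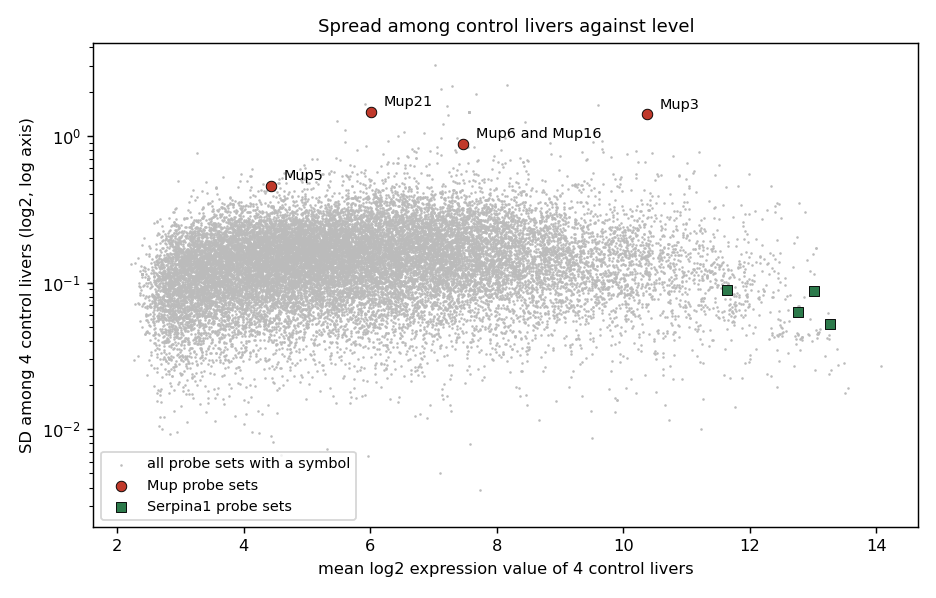
SD among the 4 control livers (vertical, log axis) against their mean log2 expression value (horizontal) for all 23410 probe sets with a symbol (grey), the Mup probe sets (red circles) and the Serpina1 probe sets (green squares). The Mup points, with SDs from 0.46 to 1.46, lie along the upper edge of the cloud. The Serpina1 points, with SDs from 0.05 to 0.09, lie at its bright end. Probe sets of like control mean had median SDs from 0.04 to 0.10 there.

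The Serpina1 paralogs gave bright readings with small SDs in both groups. The control SDs were not unusually low for that brightness. Serpina1c had a control SD of 0.087, where probe sets of like control mean (the window used for Mup3) had a median of 0.045. Serpina1d had 0.089 against 0.103. The probe sets that carry Serpina1a to Serpina1e together had 0.052 against 0.045 and 0.063 against 0.053. Serpina1c values were 13.06, 13.11, 13.02 and 12.95 for transgenic livers 1 to 4, against 12.91, 13.08, 12.99 and 13.10 for control livers 1 to 4. The groups overlapped over most of their range. Its log2 fold change was 0.01 (SE 0.08, 95% interval -0.16 to 0.19, adjusted p = 0.902 in limma). The sign turned under quantile normalization, so no direction is given.

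Serpina1d values were 11.54, 11.56, 11.48 and 11.42 for transgenic livers 1 to 4, against 11.67, 11.55, 11.60 and 11.76 for control livers 1 to 4. Transgenic replicate 2 lay just above control replicate 2, and the other transgenic livers lay below every control. The log2 fold change was -0.15 (SE 0.08, 95% interval -0.32 to 0.03, adjusted p = 0.215 in limma). The first of the 2 probe sets that carry all 5 paralogs ranged from 13.15 to 13.21 in transgenic liver and from 13.19 to 13.31 in controls, a log2 fold change of -0.08 (95% interval -0.24 to 0.07). The other ranged from 12.74 to 12.85 in transgenic liver and from 12.67 to 12.81 in controls, a log2 fold change of 0.04 (95% interval -0.12 to 0.21). None of the 4 passed limma's test (0 also at an unadjusted p under 0.05), and their intervals leave room for changes of up to 0.32 on the log2 scale.

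**Figure D3:**
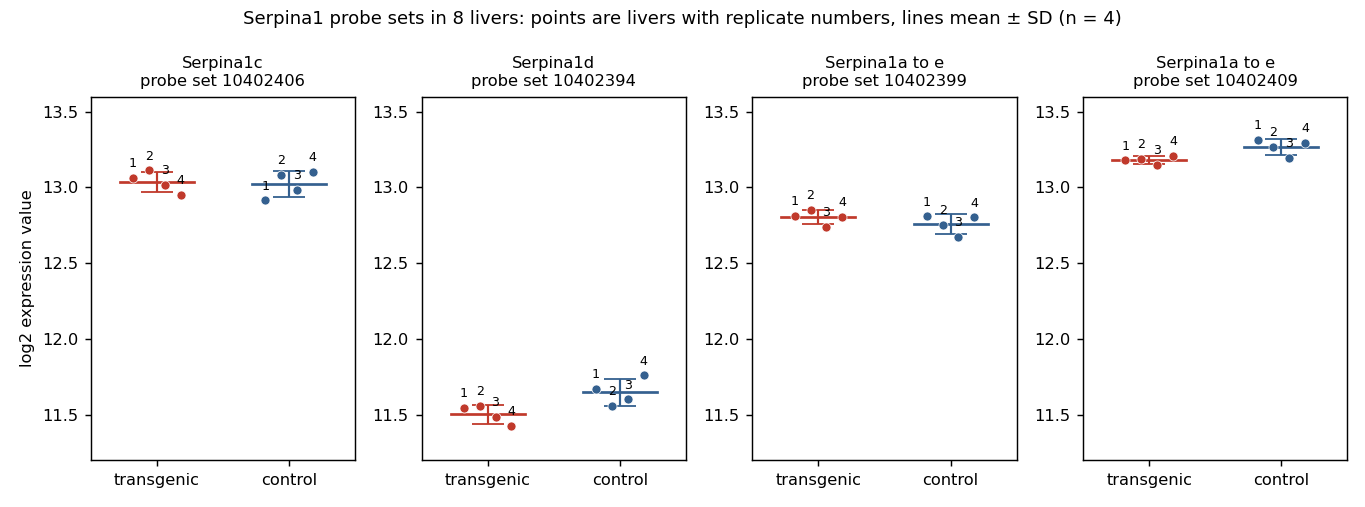
Log2 expression value (vertical axis) of the 4 Serpina1 probe sets in 4 transgenic livers (left, red) and 4 control livers (right, blue), with replicate numbers and mean ± SD. The groups overlap in all 4 panels.

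These readings lie near the top of the scale, where each array's highest value was 14.04 to 14.13. Of 271 probe sets with a control mean of at least 11.65, the lowest among the Serpina1 probe sets, 5 were called higher (1.85%) and 2 lower (0.738%). Both shares were below those over all probe sets, 4.14% and 1.46%, a difference that was not tested. The 5 called higher include Hpx, a haem-binding protein of the acute phase. It averaged 13.61 in transgenic liver and 13.04 in controls, a rise of 0.57 (adjusted p = 0.0125 in limma). Whether changes of the Serpina1 probe sets are compressed at this level was not tested.

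**Figure D4:**
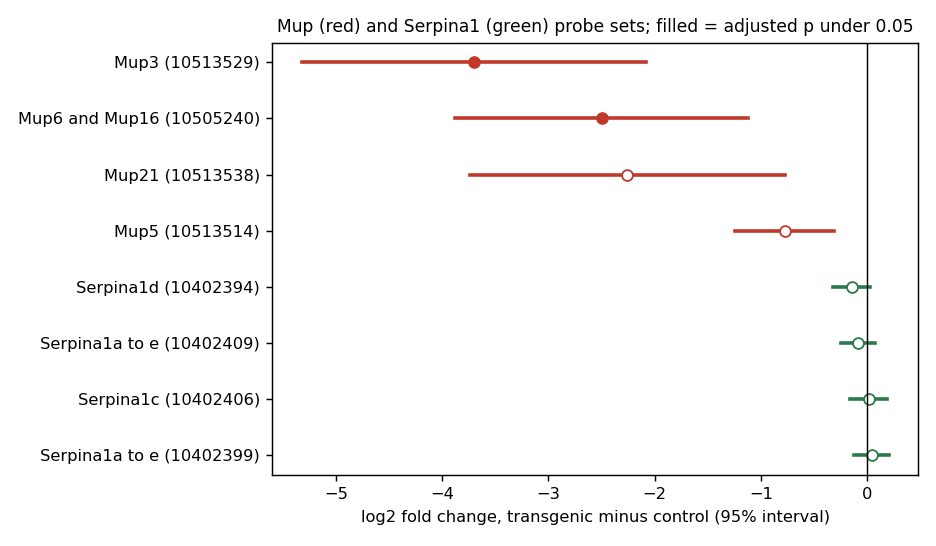
Log2 fold change, transgenic minus control (horizontal axis), of the 4 Mup (red) and 4 Serpina1 (green) probe sets with limma's 95% interval as a bar. Filled points passed at an adjusted p under 0.05. Mup estimates run from -3.70 to -0.77 and Serpina1 estimates from -0.15 to 0.04.

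Whether members differed from each other in response was tested on the differences between probe sets within each array. The 5 probe sets with 1 symbol give 10 pairs, and each was compared between the groups by an exact two-sided permutation test over 70 splits, which cannot go below 0.0286. A difference between probe sets is no ratio of amounts, since probes differ in brightness. Its change between groups was compared, but may also depend on the range in which each probe set reads. In transgenic liver Mup5 averaged 3.66 and Mup21 3.76, whereas Serpina1c averaged 13.04. Whether dim or very bright readings compress a change was not tested. Serpina1c minus Mup3 was 6.36 ± 1.22 in transgenic liver and 2.65 ± 1.40 in controls (SD, n = 4 each, exact permutation p = 0.0286, adjusted p = 0.0714 over the 10 pairs). Mup3 minus Mup21 was 2.91 ± 0.49 in transgenic liver and 4.36 ± 0.80 in controls (SD, n = 4 each, exact permutation p = 0.0286, adjusted p = 0.0714). Mup3 against Mup5 and against Serpina1d also reached 0.0286, with groups that do not overlap. After adjustment 0 of the 10 pairs passed, where 4 had reached 0.0286, all with Mup3. An adjusted p under 0.05 would need most of the 10 pairs at the smallest p. A few differing pairs could therefore not pass, and no conclusion is drawn from the count of 0. The test of Serpina1d against Serpina1c gave an exact permutation p of 0.0571 (adjusted p = 0.0714), with Serpina1d minus Serpina1c at -1.54 in transgenic liver and -1.38 in controls.

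The neighbours of both clusters were read through the 5 protein-coding genes next to each end. Around the Mup cluster on chromosome 4, 0 of 10 neighbours passed limma's test, with log2 fold changes from -0.22 for E130308A19Rik to 0.42 for the copper transporter Slc31a2 (adjusted p = 0.0998). Between them lay Slc46a2 at 0.03, Snx30 at 0.06, Inip at 0.39, Hsdl2 at -0.16, Zfp37 at 0.08, Fkbp15 at 0.35, Slc31a1 at -0.06 and Cdc26 at -0.08. Around Serpina1a to Serpina1e on chromosome 12, 1 of 10 passed. That was Serpina6, the corticosteroid carrier of plasma, which averaged 12.45 in transgenic liver and 11.56 in controls, a rise of 0.89 (SE 0.11, adjusted p = 0.00492 in limma). Serpina10, which with protein Z restrains coagulation factor X, stood at 0.36 (adjusted p = 0.0562). Serpina12, the adipokine vaspin, stood at 1.22 (adjusted p = 0.0925) and Serpina11 at -0.21 (adjusted p = 0.513). The remaining log2 fold changes were -0.28 for Serpina1f, -0.13 for Serpina16, -0.31 for Ppp4r4, -0.35 for Serpina9, -0.04 for Serpina5 and -0.26 for Serpina3a.

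Among relatives by family, 2 other lipocalins rose, 1 gene of that list fell and 12 did not pass, with a median log2 fold change of -0.07 over 15. Orm2, a plasma glycoprotein of the acute phase, rose by 4.87 and Lcn2, an iron-siderophore carrier, by 4.21. The gene that fell was Fabp1, a fatty acid binding protein of the same superfamily, by 0.58 (adjusted p = 0.0446 in limma). In the list of other serpins on chromosome 12, 12 of 20 genes were measured and 1 rose, Serpina6. Those left out had no probe set of 1 symbol and were all Serpina3 genes, so most of that group was not read. Of 8 serpins from other loci, Serpina7, which carries thyroxine, rose by 2.32 (adjusted p = 0.0385) and 7 did not pass. None of the 3 neutrophil proteases Elane, Prtn3 and Ctsg passed limma's test, and Elane, the elastase that alpha-1-antitrypsin inhibits, stood at -0.20 (adjusted p = 0.197, unadjusted p = 0.0812).

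Other liver genes that are higher in males mostly had negative log2 fold changes. Of 15 measured, 5 fell, 0 rose and 10 did not pass, with a median of -0.999. Slco1a1, an organic anion transporter, fell by 5.47 (adjusted p = 0.00753 in limma) and Hsd3b5, a steroid dehydrogenase, by 3.41 (adjusted p = 0.0458). The mean of this list was 6.61, 6.09, 6.49 and 6.97 for transgenic livers 1 to 4, against 9.15, 7.35, 7.29 and 8.88 for control livers 1 to 4. Controls 1 and 4 were again the highest, as for Mup3 and Mup21 but not Mup5, and transgenic replicate 4 the highest of its group. Genes with a wide control spread weigh on this list mean, such as Elovl3 (9.78, 4.99, 3.83 and 9.48 for control livers 1 to 4). Of 12 measured female-biased genes A1bg, a plasma glycoprotein, fell by 2.91 (adjusted p = 0.0179 in limma), 0 rose and 11 did not pass, with a median of -0.29. The mean of these genes was 6.12, 6.42, 7.84 and 7.34 for transgenic livers 1 to 4. For control livers 1 to 4 it was 7.02, 7.56, 8.02 and 7.48, with replicate 3 the highest control.

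In growth hormone signalling, which drives Mup transcription, 1 of 15 genes rose, 1 fell and 13 did not pass, with a median of 0.00. Ghr, the hormone's receptor, averaged 10.32 in transgenic liver and 11.06 in controls and fell by 0.745 (adjusted p = 0.0485 in limma). Jak2, the kinase bound to that receptor, rose by 1.38 (adjusted p = 0.0149). The STAT5 genes Stat5a and Stat5b had log2 fold changes of 0.09 and -0.24 (adjusted p = 0.387 and 0.177). Igf1, the growth factor made by the liver under growth hormone, stood at -0.56 (adjusted p = 0.0501). Among 16 transcription factors known for Mup or Serpina1 genes, 2 fell, 0 rose and 14 did not pass, with a median of -0.11. Nr0b2, the repressor SHP, fell by 0.91 (adjusted p = 0.0423) and Foxa1, a pioneer factor, by 0.42 (adjusted p = 0.0452).

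By likeness of profile over the 8 livers, after subtracting each gene's control mean, the genes nearest to Mup3 were Ces3b, Cyp4a12a, Cyp4a12b, Hsd3b5 and Gm21286. Their mean absolute differences from it were 0.58, 0.75, 0.79, 0.87 and 0.88 on the log2 scale. Gm21286 is also a symbol of the Mup6 and Mup16 probe set, and whether its own probe set reads Mup sequence was not tested. Ces3b, a carboxylesterase, stood at 7.42, 5.93, 7.21 and 9.35 for transgenic livers 1 to 4, against 11.97, 10.51, 10.56 and 11.77 for control livers 1 to 4. Cyp4a12a, a fatty acid hydroxylase, stood at 4.24, 3.68, 4.23 and 5.71 for the transgenic livers, against 10.64, 6.11, 6.46 and 9.44 for the controls. In Cyp4a12a control replicates 2 and 3 were both low, whereas only replicate 3 was low in Mup3. Ces3b, Hsd3b5 and Gm21286 were called lower in limma. The genes nearest to the mean of Serpina1c and Serpina1d were Vmn1r64, Ldb2, Cyp20a1, Rxylt1 and Olfr874, all with distances of at most 0.03, which says only that their values hardly moved either.

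**Figure D5:**
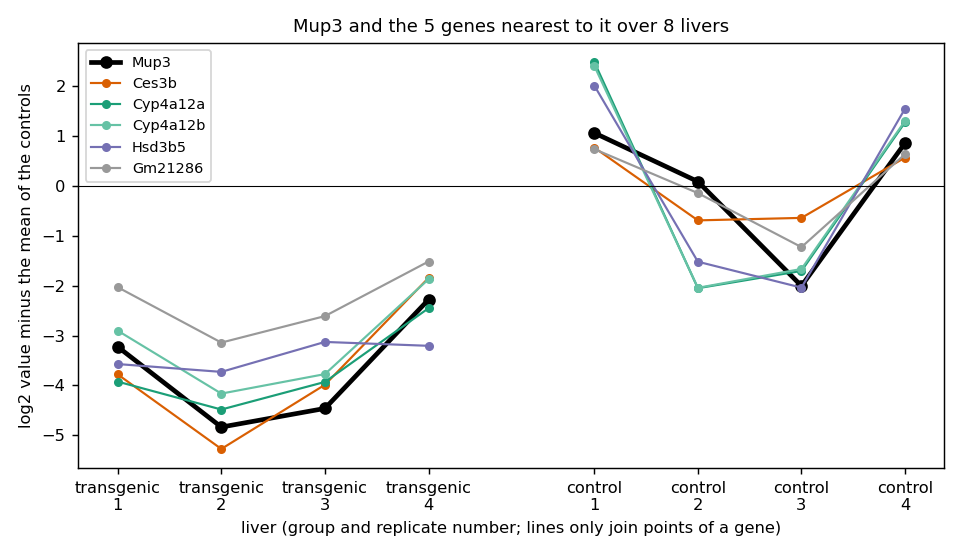
Log2 value minus the mean of the 4 controls (vertical axis) for Mup3 (black) and the 5 genes nearest to it, in transgenic livers 1 to 4 and control livers 1 to 4 (horizontal axis). Lines only join the points of a gene. Control replicates 1 and 4 lie above 0 for all 6 genes, and control replicate 3 lies below 0. The 5 genes were picked for their likeness to Mup3 over these livers, so this pattern is no separate result.

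Among abundant plasma proteins 2 of 17 were higher (Hp and Hpx), 0 lower and 15 not past the test, with a median of -0.11. The acute phase list had 8 of 17 higher, 0 lower and a median of 0.58. Saa3, a serum amyloid A, rose by 6.47. Of 9 hepatocyte markers 0 passed limma's test, with a median of -0.17 and the smallest adjusted p of 0.114 for Asgr1 (2 genes, Asgr1 and Ttr, had an unadjusted p under 0.05). For Asgr1, Apoa1 and Cyp2e1 every transgenic liver lay below every control, a pattern found for 10.6% of all probe sets. The mean of the 9 markers ranged from 12.12 to 12.41 in transgenic liver and from 12.28 to 12.42 in controls. Kupffer cell and macrophage markers were higher, 7 of 10 past the test, with means from 8.89 to 10.22 in transgenic liver and from 7.67 to 8.16 in controls. Of 4 measured leukocyte markers 3 rose, with means from 6.82 to 7.87 in transgenic liver and from 4.99 to 5.13 in controls. The part of these cells in the Mup values was not tested. Bile duct markers (0 of 4 past the test) and gland markers (0 of 4) had medians of -0.07 and -0.12, endothelial markers (0 of 5) 0.32, and stellate markers 0.33 with Col1a1 higher.

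Across the series array medians lay between 4.88 and 5.08, and precision is limited by how many arrays there are. Ikbkb, the gene of IKK2, averaged 8.71 in transgenic liver and 7.71 in controls and was higher in every transgenic liver than in any control (log2 fold change 1.00, adjusted p = 0.0197 in limma).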

How the data were processed

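Expression was measured in 8 mouse livers (4 transgenic, 4 control), 1 array each. The authors deposited a log2 expression value for every probe set of each array. Per the submitters' processing notes the tool was Affymetrix Expression Console. The log2 scale was read from the values; no tool version, settings or normalization stood in the sources used here. Of 35556 probe sets, 21789 have 1 gene symbol, 1621 several and 12146 none in the platform annotation; Entrez identifiers of 21698 of those with 1 symbol matched RefSeq (GRCm38.p6), with 0 symbols changed.

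All 23410 probe sets with a symbol entered limma 3.58.1 (R 4.3.3), group as the only term, empirical Bayes moderation (prior degrees of freedom 3.63), two-sided, Benjamini-Hochberg adjustment over all 23410, called at an adjusted p under 0.05. No further normalization was applied. Log2 fold changes are transgenic minus control. List genes with several probe sets were read through the brightest. Exact permutation tests used scipy 1.17.1, window alignments Biopython 1.88 and tables pandas 2.3.3 (Python 3.11.15). The fit was tested on simulated data.

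Members and lists were chosen with earlier results of these data known. Named are all members, the neighbours, the 5 likest genes per profile and, of each list other than the marker lists, the called genes that changed most, at most 2 a list, or where none was called the gene with the smallest p. Fabp1, Stat5a, Stat5b, Igf1, Prtn3, Ctsg, Asgr1, Apoa1, Cyp2e1, Ttr, Col1a1, Ikbkb, Xist and the Y-linked genes were named in addition, after their values were seen. Alternatives were quantile normalization, median centring, leaving out the dimmest 30% or 50%, all deposited probe sets, only those with 1 symbol, trend and robust moderation, weighted arrays, a block for the replicate number, treat against a 1.2-fold change, and each array left out. A pseudocount did not apply to log2 values.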

Additional observations from a re-analysis of the deposited data

How the results depend on the processing

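The count of member probe sets called lower, 2 as reported, was 1 (Mup3) with each array centred on its median, with all deposited probe sets, with trend and robust moderation, with treat against a 1.2-fold change and with only the probe sets of 1 symbol, where the Mup6 and Mup16 probe set has no value. It was 4, all the Mup probe sets, with array weights and with the replicate number as a block (replicate block, adjusted p from 0.0130 to 0.0402). Deviations of same-numbered livers correlated at 0.248, -0.0117, 0.269 and -0.120, and not every liver correlated best with its own number, so the numbers were not taken to pair the livers. Leaving out 1 array gave 0 to 4. The count was 2 after quantile normalization and without the dimmest 30% or 50%, where Mup5, and at 50% also Mup21, has no value. The count called higher was 0 in every setting run. The log2 fold change of Serpina1c, 0.015 as reported, was -0.0104 after quantile normalization and ranged from -0.0206 to 0.0428 over the leave-one-out fits; the cause was not tested. Mup fold changes were negative in every setting run, and 0 of the 10 pairs passed after quantile normalization, after centring or with 1 array left out (where the exact test cannot go below 0.0571), the alternatives run for the pairs. Over all probe sets tested, 342 lower and 969 higher calls became 650 and 1126 after quantile normalization, 108 and 656 after centring, 87 and 522 with all deposited probe sets, 159 and 672 with the block, 8 and 284 with treat, 555 and 1132 with array weights, and between 5 and 1002 lower and between 147 and 1816 higher with 1 array left out. Calls of list genes and neighbours were not followed through these settings. Several of them stood close to the threshold, with adjusted p from 0.0423 to 0.0485 in limma for Nr0b2, Fabp1, Foxa1, Hsd3b5 and Ghr. Signal over background was not analysed here.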

Other observations

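Another 6 probe sets carry the Mup pseudogenes Mup-ps12 and Mup-ps15, 5 of them with Gm21286, and no symbol of Mup and a digit. They were looked at after the values of the members had been seen. All 6 had negative log2 fold changes, from -2.38 to -1.13, with a median of -2.11 that counts 2 probe sets of identical values separately. Of the 6, 3 passed limma's test, where 1.46% of all probe sets were called lower. The 3 that did not pass include those 2. Values of probe set 10505261 were 4.65, 3.45, 4.06 and 5.15 for transgenic livers 1 to 4, against 6.76, 6.10, 5.16 and 6.75 for control livers 1 to 4. Its groups touched without overlapping, with transgenic lower as for 10.6% of all probe sets, and it fell by 1.87 (adjusted p = 0.0389 in limma). Probe sets 10505246 and 10505258 hold identical values on all 8 arrays, so they count as 1 reading. The order of the livers resembled that of Mup3, with control replicate 3 the lowest control and transgenic replicate 4 the highest transgenic liver in all 6.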
